A study of Mus musculus with 6 samples.

Results

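The proteins of the mitochondrial ribosome are encoded in the nucleus by genes named Mrpl, for the large subunit, and Mrps, for the small subunit. Every annotated gene whose symbol is Mrpl or Mrps followed by a number and at most 1 letter was taken, which left out symbols with a hyphen such as pseudogenes. This gave 78 genes of the 55411 annotated genes in the deposited table, 49 named Mrpl and 29 named Mrps. They were described in poly(A) RNA of mouse hippocampus from 6 libraries, 3 of a vehicle control group (Ctrl) and 3 of a clothianidin group (CLO). Clothianidin is a neonicotinoid insecticide, and the series asks what paternal exposure to it does in the next generation. Male C57BL/6N mice received 50 mg/kg/day in the CLO group, and the labels' protocol takes the RNA from the offspring. The labels state neither sex, age, litter nor sire of the sampled animals, nor whether the 3 libraries of a group come from separate litters, so p-values measure the spread between these libraries only.

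The mitochondrial ribosome translates the few messenger RNAs that mitochondrial DNA encodes, all of which specify core subunits of the respiratory chain complexes and of ATP synthase. Its RNAs come from mitochondrial DNA, whereas all of its proteins are made in the cytosol, imported and assembled in the matrix. Part of these proteins descend from bacterial ribosomal proteins and part are found only in mitochondria. Neurons depend on oxidative phosphorylation, and mutations in several of the human genes cause respiratory chain disorders that can affect the brain. Symbols do not always match the structure. Mrps30 and Mrps18a sit in the large subunit, and Mrps36 is a subunit of the 2-oxoglutarate dehydrogenase complex. By structure the 78 genes comprised 51 of the large subunit, 26 of the small subunit and Mrps36.

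Promoters of genes for mitochondrial proteins are known for binding sites of NRF1, a transcription factor of nuclear genes for respiration, and of ETS factors such as GABPA. The 250 bases before the listed start were available from RefSeq (GRCm38.p6) for 67 of the 75 genes tested below, as 73 promoters. The letters GCGCANGCG, which NRF1 can bind, were searched on both strands and were present in 17.8% of these promoters, in 9.71% of 14652 promoters of all genes tested and in 5.16% of all 32851 promoters in the table. The letters CCGGAAG, which ETS factors can bind, were present in 23.3%, 11.8% and 6.91%. The letters AAGATGGC of YY1 were present in 5.48% of the members' promoters and 1.80% of those of all genes tested, and GGGCGG of SP1 in 49.3% and 55.5%. TCAAGGTCA, a motif of ESRRA, was in none of the 73 and in 0.307% of those of all genes tested. The median GC content was 58.4% for the members and 59.6% for all genes tested. A match describes the letters of the window and is not a binding site. The stretches below were chosen to show the NRF1 letters in different arrangements, with matches to NRF1 or ETS letters in capitals. They lie at chr11:120484387-120484636 (+ strand, Mrpl12), chr7:105811088-105811337 (- strand, Mrpl17) and chr11:58171414-58171663 (+ strand, Mrpl22), and a 30-base stretch at chr13:14613105-14613134 (- strand, Mrpl32), each read in the direction of its gene.
Mrpl12: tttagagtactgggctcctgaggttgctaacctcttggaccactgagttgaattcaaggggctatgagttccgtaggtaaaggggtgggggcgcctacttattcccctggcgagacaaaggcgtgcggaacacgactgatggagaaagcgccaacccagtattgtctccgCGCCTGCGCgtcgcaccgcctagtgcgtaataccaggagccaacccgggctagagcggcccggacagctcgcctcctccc
Mrpl17: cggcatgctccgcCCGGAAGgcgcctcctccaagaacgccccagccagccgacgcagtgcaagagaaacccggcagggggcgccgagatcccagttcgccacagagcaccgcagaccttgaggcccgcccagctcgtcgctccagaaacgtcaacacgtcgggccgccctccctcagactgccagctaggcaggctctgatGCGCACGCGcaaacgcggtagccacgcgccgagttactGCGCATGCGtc
Mrpl22: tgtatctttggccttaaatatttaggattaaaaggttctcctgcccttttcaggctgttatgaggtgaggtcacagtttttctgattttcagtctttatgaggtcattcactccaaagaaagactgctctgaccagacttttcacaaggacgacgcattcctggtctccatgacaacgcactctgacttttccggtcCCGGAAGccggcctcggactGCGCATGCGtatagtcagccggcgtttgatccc
Mrpl32: tttgacccttGCGCATGCGCaagaggggcc
Counted back from the start, NRF1 letters begin 80 bases before it in Mrpl12, which has them on the opposite strand. Mrpl17 holds them 49 and 11 bases before its start, with ETS letters 237 bases before it. In Mrpl22 the ETS letters begin 53 bases and the NRF1 letters 33 bases before the start. The Mrpl32 stretch holds a single palindrome in which matches on the 2 strands overlap.

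The libraries held 25232305, 26812580 and 26688021 counts in Ctrl and 19637402, 21189231 and 20783790 in CLO, so every CLO library was shallower. The 78 genes took 0.310%, 0.216% and 0.239% of annotated counts in Ctrl 1, 2 and 3 and 0.267%, 0.306% and 0.309% in CLO 1, 2 and 3. Markers of CA1, CA2 and CA3 and dentate granule neurons were all detected. Some other markers stood apart between groups or libraries, and their part in the results was not tested. All 10 markers of neocortical neurons were lower in CLO, with summed levels of 282 to 452 CPM in Ctrl and 198 to 290 CPM in CLO, and none was at 0 overall. All 7 tested CA2 and CA3 markers were higher, at 715 to 919 CPM summed in Ctrl and 796 to 1065 CPM in CLO. All 6 oligodendrocyte markers were lower, at 2823 to 4342 CPM in Ctrl and 2404 to 3729 CPM in CLO. The 9 spermatid markers had 346, 131 and 5 counts in Ctrl 1, 2 and 3 and 1 to 3 counts in each CLO library. None of the differences in brain cell markers was assigned to a cell type here. In bulk RNA fewer cells of a type and less RNA per cell cannot be told apart. The source of the spermatid marker counts, which that reason does not address, was not tested.

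Of the 78 genes, 75 had enough counts to be tested and 74 of these had from 1552 to 12392 counts over all libraries, with a median of 4700. The 4 genes below 100 counts were Mrpl53 and Mrps34 with 0, Mrps24 with 8 and Mrpl33 with 60, of which only Mrpl33 was tested. Each of the 4 overlaps another row on the same strand. Mrps34 shares its locus on chromosome 17 with Nme3, which also had 0 counts, and Mrps24 runs into Urgcp, which had 4116. A low count therefore need not mean a low level at these genes. Among the 75 tested, 9 overlap a row on the same strand, so their counts are uncertain. They are Mrpl15, Mrpl46, Mrps6, Mrps28, Mrpl51, Mrpl3, Mrpl21, Mrps18c and Mrpl33. Of the 78 genes 35 overlap a row on the opposite strand. The labels do not state whether reads were counted by strand, so those counts may be uncertain too.

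Levels of the 74 well-counted genes, as deposited TPM (transcript abundance per gene length and library total) averaged over 6 libraries, ran from 4.86 to 125 with a median of 29.3. The large subunit genes tested had a median of 31.0 TPM and the small subunit genes 22.03. Both lie well below the medians of the cytosolic ribosomal protein genes, 363 TPM, and of the nuclear genes of oxidative phosphorylation, 200 TPM. The top of the order was held by Mrpl12 at 125 ± 23.0 TPM, Mrpl28 at 125 ± 27.3 and Mrpl41 at 125 ± 29.3 (SD, n = 6 libraries), which do not differ beyond their spread. Mrpl12 encodes the stalk protein that recruits translation factors, and Mrpl28 and Mrpl41 encode large subunit proteins, the latter found only in mitochondria. Mrps12, a protein of the decoding center, followed at 100.02 ± 23.1 TPM and Mrpl34 at 85.2 ± 20.9. The lowest of the 74 was the small subunit gene Mrps35 at 4.86 ± 0.471 TPM. The summed TPM of large over small subunit genes was 2.62, 2.73 and 2.75 in Ctrl 1, 2 and 3 and 2.71, 2.64 and 2.66 in CLO 1, 2 and 3, so the groups overlap.

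The order depends on the gene length that is used. The deposited length had a median of 2617 bases over the tested members, and the principal protein-coding transcript of each gene in GENCODE M21 had 1332. The ratio of these lengths had a median of 1.47 and was over 2 for 26 of 75 genes. Per kilobase of principal transcript, the highest levels were those of Mrps21 at 124 CPM (counts relative to the scaled library total), Mrpl52 at 81.9, Mrpl20 at 73.1 and Mrpl28 at 72.1. Mrps18a moved from rank 29 by TPM to rank 7, and Mrpl13 from rank 58 to rank 16. Mrpl12 and Mrpl28 stayed among the first 6 under either length.

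**Figure D1:**
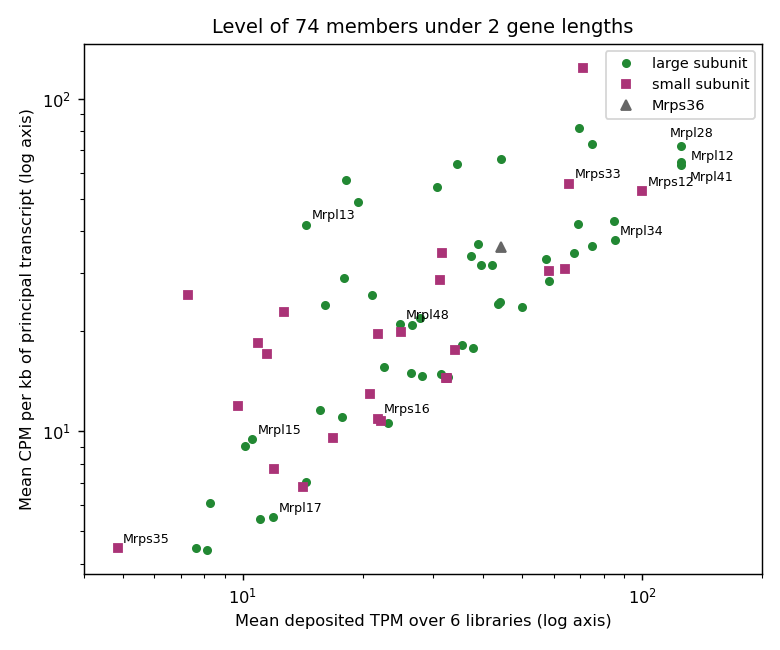
Mean deposited TPM (horizontal, log axis) against mean CPM per kilobase of principal transcript (vertical, log axis) for the 74 members with at least 100 counts, each point 1 gene over 6 libraries. Mrpl12, Mrpl28 and Mrpl41 lie farthest right at about 125 TPM, while Mrpl13 stands far higher by principal length than its 14.4 TPM would place it.

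Compared between CLO and control, 74 of the 75 tested genes had a higher level in CLO, 98.7%, against 48.2% of all 16129 genes tested. The median log2 fold change was 0.23, a fold of 1.17, with the middle 50% of genes between 0.18 and 0.31, while over all genes tested the median was -0.01. In edgeR (quasi-likelihood, Benjamini-Hochberg) none of the 75 passed an adjusted p of 0.05, 0% of all genes tested did, and the members' smallest adjusted p was 0.335. At an unadjusted p under 0.05, 5 genes were higher and 0 lower, 6.67% of the 75 against 6.18% of all genes tested that were higher. In 4 genes, 5.33%, every CLO library lay above every control library, which 7.84% of all genes tested did. Both shares are close to the background. The genes share the same libraries, so the 74 that were higher are not separate observations.

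The shared direction rests on small differences of like size. For 69 of 75 genes the log2 fold change lay between 0.1 and 0.45, and the standard error of the well-counted genes was 0.142 to 0.236. The log2 fold change exceeded its own standard error in 59 of these 74 genes and 2 standard errors in 8. The highest value was 0.51, a fold of 1.42 (Mrps16), and the smallest positive one 0.01 (Mrps2). Mrpl33, the lone gene that was lower, had 4, 21 and 12 counts in Ctrl and 7, 4 and 12 in CLO, and its log2 fold change of -0.28 ± 0.60 (SE) has no set direction.

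**Figure D2:**
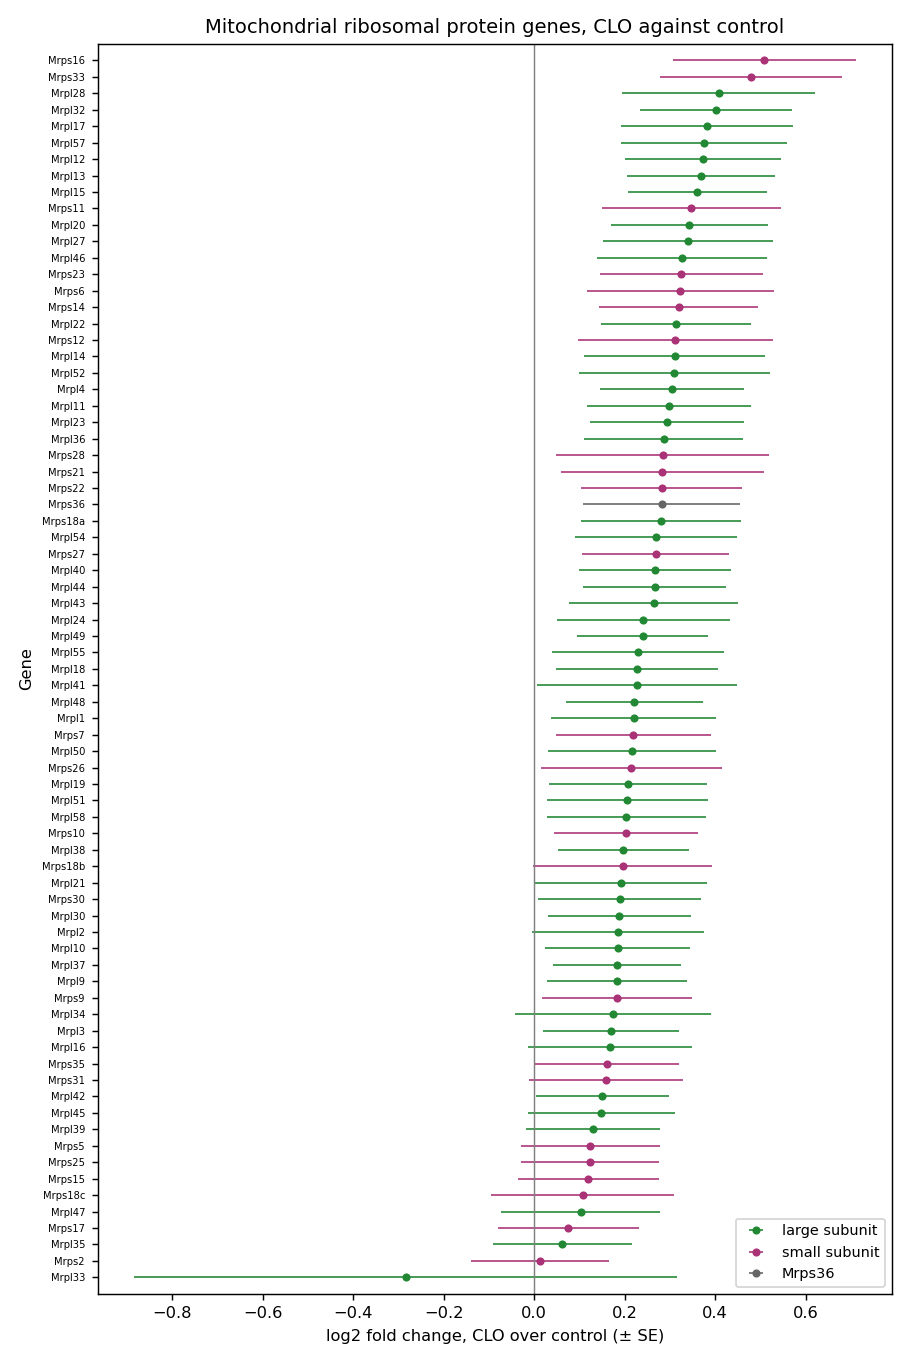
Log2 fold change of CLO over control (horizontal, edgeR) with its standard error as bars for the 75 tested genes, ordered by value and coloured by subunit in the structure. Points run from 0.51 for Mrps16 to 0.01 for Mrps2, and Mrpl33 alone lies below 0, with the widest bar.

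The libraries did not sort by group. Each gene's log2 CPM was set against its own mean over the 6 libraries, and the median of these deviations over the 75 genes was 0.11, -0.34 and -0.15 in Ctrl 1, 2 and 3 and -0.08, 0.22 and 0.27 in CLO 1, 2 and 3. The same medians over all genes were between 0.00 and 0.01 in size. Ctrl 1 thus stood above CLO 1, CLO 2 and CLO 3 stood highest, and Ctrl 2 lowest. Ctrl 1 was the highest control in 62 of 75 genes, against 40.1% of all genes tested. CLO 1 was the lowest CLO library in 72 of 75 genes, against 39.6%. In 65 of 75 genes Ctrl 1 lay above CLO 1, against 50.2% of all genes, and in 69 of 75 both CLO 2 and CLO 3 lay above both Ctrl 2 and Ctrl 3, against 32.6%. The genes were thus high or low together in a library, within each group as well as between groups. This order was not particular to them. For nuclear oxidative phosphorylation genes the medians were 0.13, -0.37 and -0.25 in Ctrl and -0.12, 0.27 and 0.32 in CLO. For cytosolic ribosomal protein genes they were 0.06, -0.25 and -0.21 in Ctrl and -0.20, 0.28 and 0.33 in CLO.

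**Figure D3:**
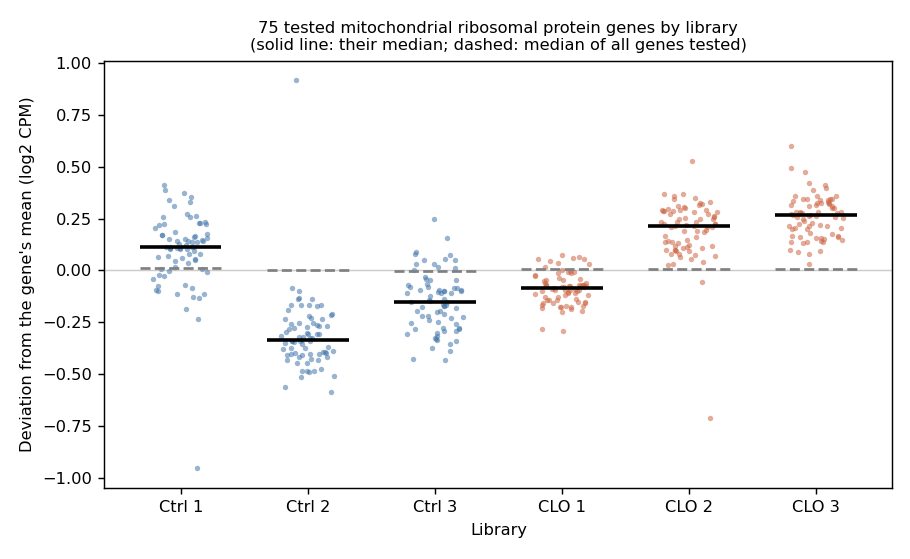
Deviation of each tested member from its own mean over 6 libraries in log2 CPM (vertical) by library (horizontal), with the median of the 75 genes as a solid line and of all genes tested as a dashed line. The solid lines stand at 0.11, -0.34 and -0.15 in Ctrl and at -0.08, 0.22 and 0.27 in CLO, so that Ctrl 1 lies above CLO 1; the point far from the rest in each of Ctrl 1, Ctrl 2 and CLO 2 is Mrpl33.

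The size of the difference depended on single libraries. Without Ctrl 1 the median log2 fold change was 0.38 and 38 of 75 genes were at an unadjusted p under 0.05, all higher, against 12.4% of all genes tested. Without CLO 1 the median was 0.35 with 20 such genes, against 9.46%. Without Ctrl 2 the median was 0.15. Ctrl 1 and Ctrl 2 held the most spermatid marker counts. With both left out, and Ctrl 3 as the only control, the median was 0.27. In that fit 71 of 75 genes were higher, against 51.5% of all genes tested. No member was at an unadjusted p under 0.05 without Ctrl 2, CLO 2 or CLO 3, where 3.12%, 2.86% and 3.03% of all genes tested were and were higher, and 1 member was without Ctrl 3, against 5.85%. No member passed the adjusted threshold with any single library left out. By limma-voom with sample quality weights, which gave Ctrl 1 a weight of 0.323 and CLO 2 a weight of 4.40, 36 of the 75 genes passed, all of them higher, against 21.5% of all genes tested that passed in either direction and 11.3% that passed as higher. Summed deposited TPM, a share of the whole library, was 3324, 2196 and 2341 in Ctrl and 2813, 2956 and 2790 in CLO, or 2620 ± 614 against 2853 ± 90.2 (SD, n = 3). On that scale the groups overlap, and Ctrl 1 was the highest of all 6.

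Among the proteins of the small subunit, Mrps16 had the highest log2 fold change of all 75 genes. It encodes a protein conserved from bacteria (chromosome 14, 20439372 to 20443702, - strand, GRCm39), and mutations of the human gene cause a respiratory chain disorder. Its level was 28.4, 19.0 and 22.02 CPM in Ctrl 1, 2 and 3 and 25.1, 39.3 and 34.4 CPM in CLO 1, 2 and 3. CLO 1 lay below Ctrl 1, so the groups overlap. The means were 23.1 ± 4.79 and 32.9 ± 7.21 CPM (SD, n = 3), and the edgeR log2 fold change was 0.51 ± 0.20 (SE; adjusted p = 0.335).

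Mrps33, a small subunit protein found only in mitochondria (chromosome 6, 39778738 to 39787922, - strand, GRCm39), also had CLO 1 below Ctrl 1, with CLO 2 and CLO 3 highest. Its CPM were 64.4, 40.3 and 49.2 in Ctrl and 55.9, 75.7 and 82.9 in CLO. EdgeR gave a log2 fold change of 0.48 ± 0.20 (adjusted p = 0.349). The decoding center proteins differed less. Mrps12 stood at 57.1, 32.6 and 35.0 CPM in Ctrl and 42.3, 55.4 and 57.1 in CLO, a log2 fold change of 0.31 ± 0.22, and Ctrl 1 was level with CLO 3. Mrps5 stood at 38.7, 31.4 and 29.2 CPM in Ctrl and 35.8, 35.8 and 36.7 in CLO, a log2 fold change of 0.12 ± 0.15. In Mrps5 the CLO libraries were close to each other and within the range of the controls. Mrps22, whose human gene is also mutated in mitochondrial disease, had a log2 fold change of 0.28 ± 0.18, with 16.7 to 20.9 CPM in Ctrl and 17.9 to 25.1 in CLO. For Mrps35 the value was 0.16 ± 0.16, with 16.7 to 19.1 CPM in Ctrl and 17.4 to 21.8 in CLO.

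In the large subunit, Mrpl32, Mrpl15, Mrpl44 and Mrpl49 were the 4 genes of the 75 whose groups did not overlap. These are 5.33%, all with CLO above control, against 7.84% of all genes tested. Mrpl32, which the mitochondrial m-AAA protease matures (chromosome 13, 14782769 to 14787750, - strand, GRCm39), had 15.4, 13.9 and 18.2 CPM in Ctrl and 18.6, 20.97 and 23.3 in CLO. The gap between Ctrl 3 and CLO 1 was small. Its means were 15.8 ± 2.15 and 20.9 ± 2.37 CPM (SD, n = 3), and edgeR gave a log2 fold change of 0.40 ± 0.17 (SE; adjusted p = 0.349). Mrpl15, conserved from bacteria (chromosome 1, 4843429 to 4855962, - strand, GRCm39), had 37.4, 31.1 and 36.1 CPM in Ctrl and 39.0, 47.9 and 47.4 in CLO. Here too CLO 1 lay closer to the controls than to the other CLO libraries, and the log2 fold change was 0.36 ± 0.15 with an adjusted p of 0.352. Mrpl15 overlaps another row on the same strand. Mrpl44, a mitochondria-specific protein related to ribonuclease III, had 24.2, 21.4 and 24.9 CPM in Ctrl and 25.5, 26.9 and 32.3 in CLO, a log2 fold change of 0.27 ± 0.16. Mrpl49 was at 35.5 to 40.3 CPM in Ctrl and 40.4 to 48.8 in CLO, a log2 fold change of 0.24 ± 0.15.

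Mrpl13, conserved from bacteria, had a log2 fold change of 0.37 ± 0.16 and an adjusted p of 0.361 by edgeR, and with Mrps16, Mrps33, Mrpl32 and Mrpl15 makes up the genes at an unadjusted p under 0.05. It stood at 47.8, 38.9 and 47.0 CPM in Ctrl and 47.1, 61.6 and 63.9 in CLO, so that CLO 1 lay inside the control range. The stalk proteins, which contact the translation factors, were all higher without passing. Mrpl12 had 92.4, 62.0 and 68.4 CPM in Ctrl and 86.4, 104.9 and 97.2 in CLO, a log2 fold change of 0.37 ± 0.17. For Mrpl11 the value was 0.30 ± 0.18 and for Mrpl10 0.18 ± 0.16, and in both Ctrl 1 lay above CLO 1. Mrpl28 had 87.1, 52.5 and 59.1 CPM in Ctrl and 67.0, 96.5 and 100.1 in CLO, a log2 fold change of 0.41 ± 0.21 with the groups overlapping.

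Smaller values were found for other large subunit proteins with known roles. Mrpl45, which anchors the tunnel exit to the inner membrane, had a log2 fold change of 0.15 ± 0.16, with 29.4 to 39.8 CPM in Ctrl and 33.6 to 41.6 in CLO. Mrpl58, a peptidyl-tRNA hydrolase that is also built into the ribosome, had 0.20 ± 0.18, with 29.1 to 44.99 CPM in Ctrl and 38.4 to 44.1 in CLO. Mrpl3, whose bacterial counterpart reaches toward the peptidyl transferase center, had 0.17 ± 0.15, with 37.0 to 46.8 CPM in Ctrl and 46.2 to 51.7 in CLO. In all 3 the groups overlap and the difference is about the size of its standard error. Mrpl41 and Mrpl34, among the most abundant by TPM, had 0.23 ± 0.22 and 0.18 ± 0.22. In both genes Ctrl 1 was the highest of all 6 libraries, at 62.1 CPM for Mrpl41 and 29.8 CPM for Mrpl34.

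**Figure D4:**
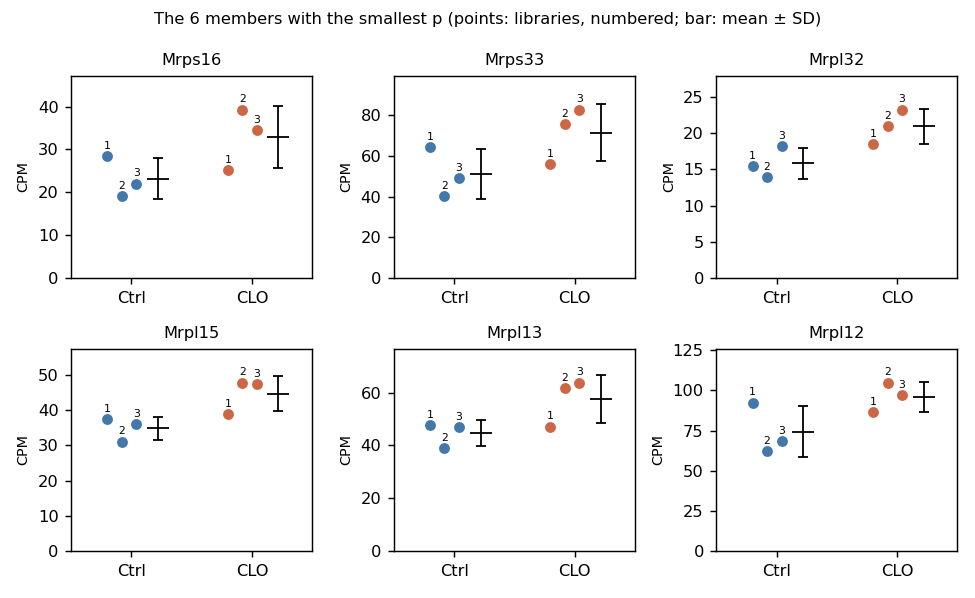
CPM (vertical, from 0) of the 6 genes with the smallest p, by group (horizontal), with numbered points for the 3 libraries of a group and bars for the mean ± SD. CLO 1 lies below CLO 2 and CLO 3 in every panel, and the groups are separate for Mrpl32 and Mrpl15, by narrow gaps, and overlap for Mrps16, Mrps33, Mrpl13 and Mrpl12.

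The paralogs Mrps18a, Mrps18b and Mrps18c descend from a single bacterial protein and occupy different places, Mrps18a in the large subunit and the others in the small. Mrps18a had the highest CPM of the 3, at 50.9 ± 9.85 in Ctrl and 61.8 ± 8.60 in CLO (SD, n = 3), a log2 fold change of 0.28 ± 0.18 (SE). Mrps18b stood at 19.7 ± 4.24 and 22.5 ± 4.06 CPM and Mrps18c at 11.3 ± 2.50 and 12.2 ± 1.85, with log2 fold changes of 0.20 ± 0.20 and 0.11 ± 0.20. The groups overlap in all 3 genes. Mrps36, the member outside the ribosome, had a log2 fold change of 0.28 ± 0.17, within the range of the ribosomal members.

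Classes within the ribosome had similar medians. The log2 fold change had a median of 0.23 for 50 large subunit genes, of which 49 were higher, and of 0.22 for 24 small subunit genes, all higher. It was 0.23 for 45 genes listed with a bacterial counterpart, 44 of them higher. For 29 genes listed as mitochondria-specific it was 0.22, all higher. Mrps18a and Mrps18b were listed in the mitochondria-specific class despite their bacterial descent. The 5 mitoribosome proteins with other names, Dap3, Ptcd3, Chchd1, Aurkaip1 and Gadd45gip1, were also higher, with a median of 0.30. Of these Chchd1, a small subunit protein, was separate between groups, at 14.5, 11.7 and 13.4 CPM in Ctrl and 16.2, 20.1 and 20.0 in CLO, a log2 fold change of 0.50 ± 0.17 with an adjusted p of 0.291 by edgeR. Dap3, a GTP-binding protein of the small subunit, had 0.33 ± 0.16, and Aurkaip1, also of the small subunit, 0.30 ± 0.19. Gadd45gip1 had 0.23 ± 0.17, and Ptcd3 had no clear difference at 0.02 ± 0.18.

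Gene length moved with the fold change over the whole table. Across all 16129 genes tested, Pearson's r between log2 fold change and log2 deposited length was -0.498, a description across genes that are not independent. The median log2 fold change went from 0.27 in the shortest quintile of genes through 0.09, -0.01 and -0.10 to -0.25 in the longest. In the shortest quintile the 23 members had a median of 0.28, level with all genes there. In the longer quintiles, 26, 11, 9 and 6 members had medians of 0.21, 0.21, 0.17 and 0.29, each higher than all genes of the same quintile. By principal transcript length 48 members belonged to the shortest quintile, with a median of 0.27 against 0.19 for all genes there. Over the members alone r was -0.280 with log2 deposited length. With log2 principal length it was -0.0679 over members and -0.486 over all genes that have one. After removal of the trend on deposited length 67 of 75 members were higher, with a median of 0.14, against 49.36% of all genes tested. After removal of the trend on principal length 61 were higher, with a median of 0.10, against 52.35%. Mrpl34 and Mrpl41 were at -0.22 and -0.09 in the fit by deposited length and at -0.0702 and -0.00132 in that by principal length. Mrpl41 thus had no clear direction by principal length. The part of length in the members' difference beyond these values was not tested.

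**Figure D5:**
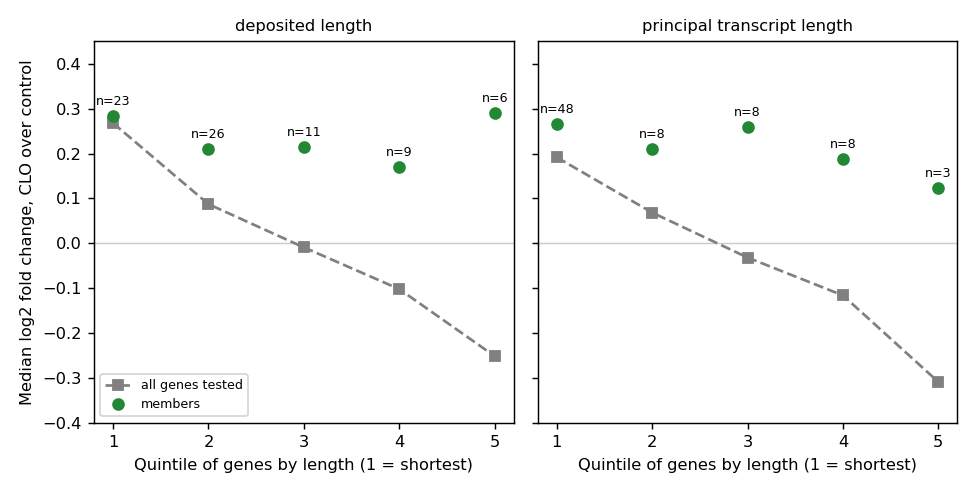
Median log2 fold change of CLO over control (vertical) in quintiles of genes by length (horizontal, shortest first), by deposited length on the left and principal transcript length on the right, for all genes tested (squares) and for members (circles, with their number). All genes run from 0.27 to -0.25 on the left and from 0.19 to -0.31 on the right, and the members lie above them in each quintile.

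The neighbours of these genes on the opposite strand showed no common direction. A head-to-head gene whose start lies within 1000 bases was found for 31 of 75 members, 41.3%, against 16.2% of all genes tested (GRCm39). In the pair Mrps11 and Mrpl46 both genes are members, with log2 fold changes of 0.35 and 0.33. Of the 29 neighbours that are not members 15 were higher, 51.7%, with a median of 0.01. Mrpl57 had 0.37 and its neighbour Ska3 -0.60, Mrpl13 had 0.37 and Mtbp -0.27, and Mrpl32 had 0.40 and Psma2, a proteasome subunit, 0.24. Those 3 pairs were chosen after their values were seen.

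Genes that act with the mitochondrial ribosome were described from lists, and no gene of any list passed the adjusted threshold by edgeR. The 2 larger groups of abundant nuclear genes were higher to a similar extent, with 75 of 76 cytosolic ribosomal protein genes higher at a median log2 fold change of 0.27 and 72 of 75 nuclear oxidative phosphorylation genes at 0.30. Their median deposited lengths, 1906 and 1817 bases, fall in the shortest quintile of genes. In that quintile 78.2% of all genes tested were higher, at a median of 0.27. Of 23 genes for protein import into mitochondria, 22 were higher, with a median of 0.22. Timm8b, a small chaperone of the intermembrane space, stood at 89.8, 72.3 and 83.0 CPM in Ctrl and 90.5, 119 and 134 in CLO, a log2 fold change of 0.49 ± 0.17 with an adjusted p of 0.299. Its groups were separate by less than 1 CPM. Tomm5, of the outer membrane translocase, had 0.49 ± 0.20, and Timm23, the channel of the inner membrane translocase, 0.41 ± 0.17, with overlapping groups in both. Of 22 assembly factors 18 were higher, with a median of 0.15, and those with the smallest p were Mterf3 at 0.36 ± 0.21, Malsu1 at 0.29 ± 0.20 and the GTPase Noa1 at 0.21 ± 0.16.

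Translation factors and tRNA synthetases of mitochondria showed no common direction. Of 15 factors 9 were higher, with a median of 0.10, and of 17 synthetases 9 were higher, with a median of 0.01. Yars2, the tyrosyl-tRNA synthetase, had 9.45 to 12.4 CPM in Ctrl and 14.1 to 16.0 in CLO, a log2 fold change of 0.46 ± 0.17 with an adjusted p of 0.308 by edgeR, while Cars2, the cysteinyl-tRNA synthetase, had 0.31 ± 0.17 and Vars2, the valyl-tRNA synthetase, -0.24 ± 0.15. Among the factors the smallest p belonged to Slirp, an RNA-stabilizing protein, at 0.32 ± 0.17, Taco1, a translational activator of cytochrome oxidase subunit I, at 0.27 ± 0.17, and the elongation factor Tsfm at 0.36 ± 0.24. Of the genes named, picked for the smallest p, the groups were separate for Taco1, Yars2 and Vars2. Taco1 was at 8.20 to 8.91 CPM in Ctrl and 9.60 to 10.97 in CLO. Over the whole lists, 1 of 15 factors was separate as higher and 1 as lower, as were 1 and 1 of 17 synthetases. Of all 16129 genes tested, 1264 were separate as higher and 1080 as lower. Factors and synthetases are longer than the members, with median deposited lengths of 3868 and 5747 bases.

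The transcripts that the mitochondrial ribosome translates lay mostly on the other side of 0. Of 13 mitochondrially encoded genes listed, mt-Co3 and mt-Nd4 had too few counts to be tested. Among the 11 tested 10 had lower levels in the CLO group, at a median of -0.24 on the log2 scale. In mt-Nd2, mt-Atp8, mt-Co1, mt-Nd1 and mt-Co2 the difference was smaller than its standard error. The library medians of the 11 genes were -0.38, 0.32 and 0.43 in Ctrl and -0.38, -0.26 and 0.23 in CLO. The groups overlap, and Ctrl 1 stood level with CLO 1. mt-Nd5, a subunit of complex I, was at 3309, 5146 and 4555 CPM in Ctrl and 2586, 2489 and 3054 in CLO, a log2 fold change of -0.68 ± 0.19 with an adjusted p of 0.232 by edgeR. mt-Nd3, another subunit of complex I, was the exception, at 1144 to 1640 CPM in Ctrl and 1961 to 3050 in CLO, 0.81 ± 0.20 with an adjusted p of 0.200. mt-Atp6, a subunit of ATP synthase whose gene overlaps mt-Atp8, had only 1.65 to 2.28 CPM in Ctrl and 0.490 to 1.07 in CLO, with separate groups, a log2 fold change of -1.24 ± 0.34 and an adjusted p of 0.232. Mitochondrial transcripts have nuclear copies that can share reads, and how reads in overlapping genes were counted is not stated. These levels, that of mt-Atp6 above all, and the count of lower genes are therefore uncertain.

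Among 17 genes of mitochondrial DNA transcription and of mitochondrial biogenesis, 11 were higher and 6 lower, with a median of 0.08. The coactivators Ppargc1a and Ppargc1b, which act with NRF1 and the estrogen-related receptors on nuclear genes for mitochondria, were among the lower. Ppargc1a stood at 24.9, 32.2 and 20.2 CPM in Ctrl and 20.96, 15.5 and 13.0 in CLO, with CLO 1 inside the control range, and a log2 fold change of -0.64 ± 0.22 with an adjusted p of 0.291 by edgeR. Ppargc1b stood at 8.09, 4.52 and 3.04 CPM in Ctrl and 3.002, 2.94 and 2.196 in CLO, -0.94 ± 0.33 with an adjusted p of 0.299. Ctrl 1 alone was far above the rest in Ppargc1b, and Ctrl 3 was level with CLO 1. Polg, the mitochondrial DNA polymerase, was separate in the other direction, at 35.1 to 39.3 CPM in Ctrl and 41.97 to 46.2 in CLO, 0.22 ± 0.14.

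Annotated pseudogenes of members that could be tested numbered 5 and all had positive log2 fold changes. Their deposited lengths of 306 to 636 bases fall in the shortest quintile, where 78.2% of all genes tested were higher. The 5 held 136 to 857 counts over all libraries, and a pseudogene can share reads with its parent. Mrpl48-ps had 98, 157 and 132 counts in Ctrl and 106, 182 and 182 in CLO, a log2 fold change of 0.68 with an adjusted p of 0.330 by edgeR, while its parent Mrpl48, with 12392 counts the most counted member, had 0.22 ± 0.15. Mrpl23-ps1 had 0.56, and those of Mrps36 and Mrpl27 had 0.20 to 0.39.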

How the data were processed

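Total RNA of 300 ng with an RNA integrity number of at least 8 was poly(A)-selected and made into stranded libraries with 10 PCR cycles, per the labels' protocols. The authors deposited raw counts of reads for each gene and TPM values with gene names, coordinates (GRCm39) and lengths. Tools in the submitters' processing notes are HISAT2 2.2.0, featureCounts 2.6.0 and cutadapt 2.9. The release of the annotation, whether counting used the strand and how multi-mapping or overlapping reads were counted are not stated in the labels. Each deposited TPM was recomputed from the deposited counts and lengths to within 5e-04.

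Groups came from the labels. The 1103 rows without gene annotation, 0.640% to 0.780% of counts, were left out. In R 4.3.3, edgeR 4.0.16 kept genes by filterByExpr, scaled libraries by TMM and applied a robust two-sided quasi-likelihood test without a block, and p-values were adjusted over all 16129 genes (Benjamini-Hochberg; threshold 0.05). CPM are counts over the TMM-scaled library total, log2 CPM used a prior count of 2, and a standard error is the log2 fold change over the root of the test's F. Depth limits precision through counting error only where counts are low. The script was tested on simulated data. Alternatives used DESeq2 1.42.0, limma 3.58.1, other scalings and filters, a pseudocount of 1 or 0.1 on TPM, length-trend removal and omission of libraries. Principal transcript lengths and promoters were matched by gene ID or symbol from GRCm38 tables, whose coordinates were not mixed with GRCm39. No genome sequence or protein table was used here.

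The genes named are the 6 with the smallest p in each direction, the 5 highest and 5 lowest by TPM, members of stated roles and the 3 with the smallest p of each list of the mitochondrial translation pathway (none of the cytosolic ribosomal and oxidative phosphorylation lists); others named were chosen after their values were seen. The members, lists and tests were chosen with earlier results of these data known.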

Additional observations from a re-analysis of the deposited data

How the results depend on the processing

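No member passed the adjusted threshold in any setting run except limma-voom with sample quality weights, which called 36 of 75; the cause was not tested. DESeq2, which gave no adjusted p for 1 member, called 204 genes and no filter called 699, none of them members, and 6 and 9 members were then higher at an unadjusted p under 0.05, against 5.87% and 4.39% of all genes tested. Members higher in CLO numbered 61 to 75 over all settings, and the median log2 fold change ran from 0.10 with the principal length trend removed, a setting chosen after seeing the data, to 0.40 with quality weights. With single libraries left out, 71 to 75 were higher and the median ran from 0.15 without Ctrl 2 to 0.38 without Ctrl 1. On log2(TPM + 1) with limma 67 of 75 were higher at a median of 0.12, while the median of all genes tested shifted to -0.10 and 33.1% were higher; with a pseudocount of 0.1 these were 67, 0.12, -0.13 and 33.4%. Deviations of same-numbered libraries had r of -0.157, -0.0948 and 0.277, and those of differently numbered libraries ran from -0.3765 to 0.4288. Deviations within so small a group constrain each other, so these values cannot decide whether the numbers pair the libraries. With a replicate block no member passed, 74 were higher and the median was 0.25. In that fit 1 member was at an unadjusted p under 0.05, against 4.9% of all genes.

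Among 24 named genes that were tested, 10 of 383 values changed sign. They were -0.0879 for Mrpl41 and -0.216 for Mrpl34 with the deposited length trend removed, -0.00132 for Mrpl41, -0.0702 for Mrpl34, -0.00491 for Mrps18b and -0.159 for Mrps18c with the principal length trend removed, -0.0203 for Mrps18c without Ctrl 2, -0.0101 and -0.00891 for Mrps18c on log2 TPM with a pseudocount of 1 and 0.1, and 0.0350 for Mrpl33 without CLO 2. Leaving out a single library moved the log2 fold change of 18 of these 24 genes by over 1.5 times, most often without Ctrl 1 (13 genes) or Ctrl 2 (11). Mrps18c ran from -0.0203 to 0.288, Mrpl33 from -0.774 to 0.0350, Mrpl34 from 0.03 to 0.48, Mrpl41 from 0.07 to 0.52, Mrpl58 from 0.08 to 0.39, Mrpl45 from 0.06 to 0.27 and Mrps12 from 0.17 to 0.61. The 6 that did not move so far were Mrpl12, Mrpl13, Mrpl15, Mrpl32, Mrps16 and Mrps33. These are the 6 higher genes named for the smallest p in the same libraries, so their steadiness is not separate support. Counts below 100 limit Mrpl33, Mrps24, Mrpl53 and Mrps34.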
